A study of Arabidopsis thaliana with 6 samples.

Results

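Transcript levels were compared between Arabidopsis thaliana seedlings kept on 10 nM melatonin (MT) and seedlings on the ethanol control, with 2 RNA-seq libraries on each side out of 6 in the series. The 4 libraries were taken by their titles and count columns, and all 27978 rows of the count table were considered. Plants of both groups were wild type of the Columbia accession, grown on Murashige and Skoog plates with 3% sucrose. They were moved when 4 days old to plates holding either 10 nM MT or the solvent alone, which was ethanol at a final 0.1%. The 2 remaining libraries were of seedlings given 1 nM of the auxin indole-3-acetic acid (IAA). They entered the model fit to help measure the spread, and their levels are given beside some of the results. MT and IAA were set against the same control libraries. The control columns of the table are named 72 h, whereas the titles of the same samples say 7 days. Seedlings 4 days old at transfer would also be 7 days old 72 h later, and the labels do not settle whether the titles mean age or time on the plates. A difference in age or time on the plates between the control and MT groups cannot be told apart from the treatment. The sample labels call the tissue seedlings and the design text calls it rosette leaves. Whether the replicates were separate cultures is not stated in the labels, and every p-value measures the spread between these libraries, which may be technical.

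Melatonin is an indole made from tryptophan through serotonin, and plants make it as well as animals do. In plants it has been studied as a growth regulator related to auxin by structure and as a modulator of stress responses, and the title of the series names root growth and its dependence on IAA. Many of the genes described below belong to the general stress response of plants. When a cell senses a microbial pattern, a wound or a touch, calcium enters the cytosol, calcium-dependent kinases and mitogen-activated protein (MAP) kinases become active, and genes for WRKY, ERF, zinc finger and NAC transcription factors are transcribed within a short time. Abscisic acid, jasmonate, ethylene and salicylic acid then extend the response.

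Depth was 52929788 and 47351249 counts for control replicates 1 and 2, and 48655999 and 40087221 counts for the MT replicates. Organelle reads set MT replicate 1 apart. Genes of the plastid genome took 0.285% of its counts (95% Wilson interval 0.283 to 0.286) against 0.0196% to 0.0244% in the other 5 libraries, and genes of the mitochondrial genome 0.00994% against 0.00255% to 0.00322%. Of the 127 organelle genes tested, 0 were called by edgeR's quasi-likelihood test (described below), 70 had an unadjusted p under 0.05, all higher, and DESeq2 called 7 and limma-voom 0. The Pearson correlation of log2 CPM (counts scaled to library size) across genes was 0.9859 between the control libraries and 0.9829 between the MT libraries. Because of the organelle reads, counts are also given without MT replicate 1. Counts without control replicate 1, which lowered the total number of calls further, are given beside them for lists with called genes. This is done where either moves a list's count by more than 1.5 times.

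With MT, edgeR's quasi-likelihood test called 403 of 21267 tested genes (1.89%) at a Benjamini-Hochberg adjusted p under 0.05. Of these, 355 were higher (1.67% of those tested) and 48 were lower (0.226%). The called increases were larger and lay in less abundant transcripts than the decreases. The genes called higher had a median control level of 9.43 CPM and a median log2 fold change of 1.06, whereas those called lower had 44.5 CPM and -0.56, beside 14.2 CPM and -0.003 over all tested genes. Among the called genes, 200 changed at least 2-fold (0.94% of those tested), 193 of them upward. At least 4-fold changes were found in 60 genes called higher and 1 called lower. In every called gene both MT libraries lay on 1 side of both control libraries. Separation alone was common and held for 9503 tested genes (44.7%), 22.5% higher and 22.2% lower. Fold changes were positive in 49.3% of all tested genes. When the same test was run on simulated counts, 11.3% of the genes called at this threshold were unchanged ones.

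**Figure D1:**
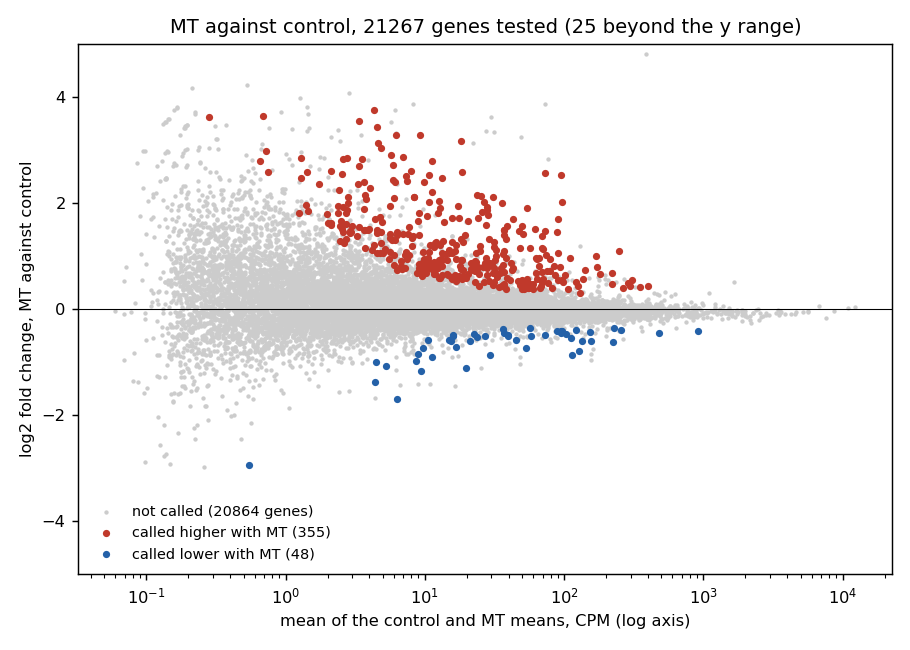
Each point is 1 of 21267 tested genes, with the mean CPM of the control and MT groups on the log x axis and the log2 fold change of MT against control on the y axis. The 355 genes called higher (red) reach further from 0 than the 48 called lower (blue), and 25 genes lie beyond the y range.

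The number of calls rested on single libraries. Without MT replicate 1 the test called 172 genes (0.797% of 21591 tested), of which 164 were among the 403. Without control replicate 1 it called 112 (0.516% of 21700 tested), of which 108 were among the 403. All 403 genes had the same sign in both of these fits. The median ratio of the log2 fold change to that with all libraries was 0.990 without MT replicate 1 and 0.902 without control replicate 1. The control libraries were unequal in the genes called higher: control replicate 1 lay below control replicate 2 in 284 of the 355 (80%), against 50.8% of all tested genes. The part that this difference between the control libraries has in the calls was not tested.

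**Figure D2:**
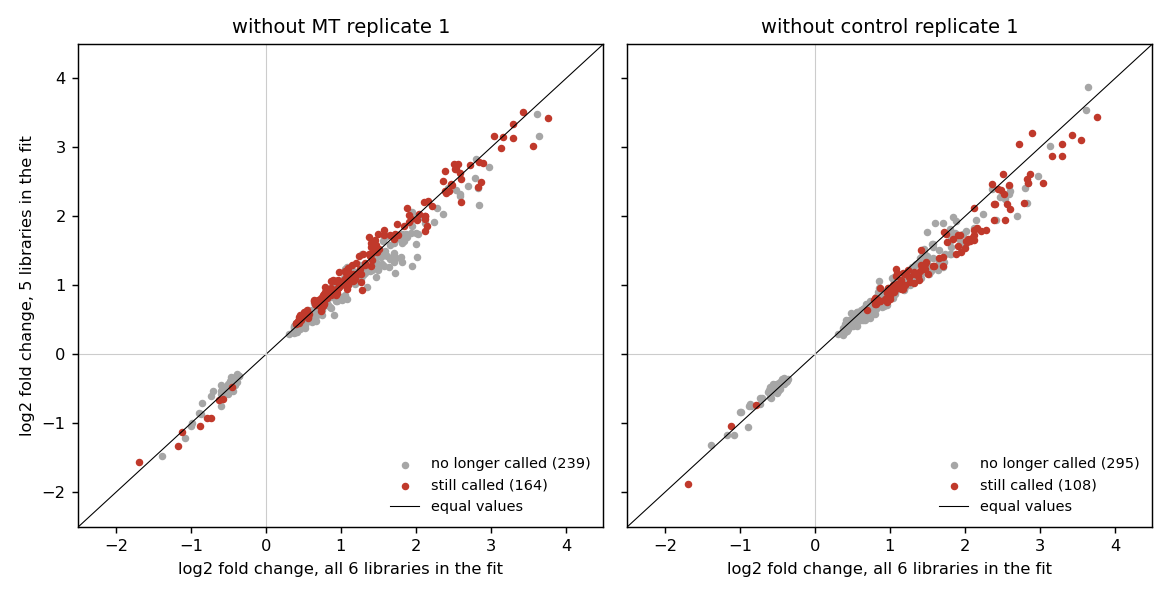
Each point is 1 of the 403 called genes, with the log2 fold change from all 6 libraries on the x axis and that from 5 libraries on the y axis, without MT replicate 1 (left) or without control replicate 1 (right). Red points are the genes that were also called in the smaller fits, and the line marks equal values. Beyond the axes lie 3 genes at the upper end and, at the lower end, the largest decrease of a called gene (-2.951).

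Where a gene list is said to hold 0 called genes, the number at an unadjusted p under 0.05 and the number called by DESeq2 follow. In those lists limma-voom called 0 genes, with the exception of 1 signal peptide gene. For comparison, 2817 of all 21267 tested genes had an unadjusted p under 0.05, and DESeq2 called 823 of them. Counts of called genes in any list or family are to be read beside the 1.67% higher and 0.226% lower of all tested genes.

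The largest increases were in transcripts that were scarce in the control, and most of the named ones code for regulators or signalling proteins. In what follows, levels are CPM in replicate 1 and replicate 2 of a group, in this order. WRKY53, a transcription factor gene of defence and leaf senescence, was at 0.632 and 0.906 CPM in the control and at 7.79 and 8.80 CPM with MT. DLAH (AT1G30370), a lipase gene related to the first step of jasmonate synthesis, was at 0.460 and 0.738 CPM and at 9.67 and 6.46 CPM. CML37, which codes for a calmodulin-like calcium sensor, was at 0.345 and 0.717 CPM and at 8.07 and 4.31 CPM. For these 3 genes the lower MT library was more than the higher control library, and the log2 fold changes were 3.43 ± 0.24, 3.76 ± 0.31 and 3.55 ± 0.41 (SE). MYB15, a regulator of cold response and defence lignin, went from 0.786 and 1.52 CPM to 12.3 and 10.1 CPM. BCS1 (AT3G50930), annotated for cytochrome bc1 synthesis, went from 2.89 and 4.47 CPM to 33.1 and 32.6 CPM. The genes that complete the 10 largest increases among called genes averaging at least 1 CPM over the 4 libraries are WRKY46, DREB1B, the TIR-type disease resistance gene AT5G41750, AT1G50750 (annotated as aminotransferase-like) and the calcium-binding protein gene AT3G29000. Of these 10, all but AT1G50750 were also called without control replicate 1, where its adjusted p was 0.0839, and all 10 were called without MT replicate 1. With IAA, WRKY53 was at 4.63 and 3.89 CPM, DLAH at 4.101 and 4.77 CPM and CML37 at 3.67 and 3.25 CPM. MYB15 was at 4.35 and 6.63 CPM and BCS1 at 16.3 and 22.7 CPM with IAA, so that the IAA libraries of these 5 genes lay above both controls and below both MT libraries.

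**Figure D3:**
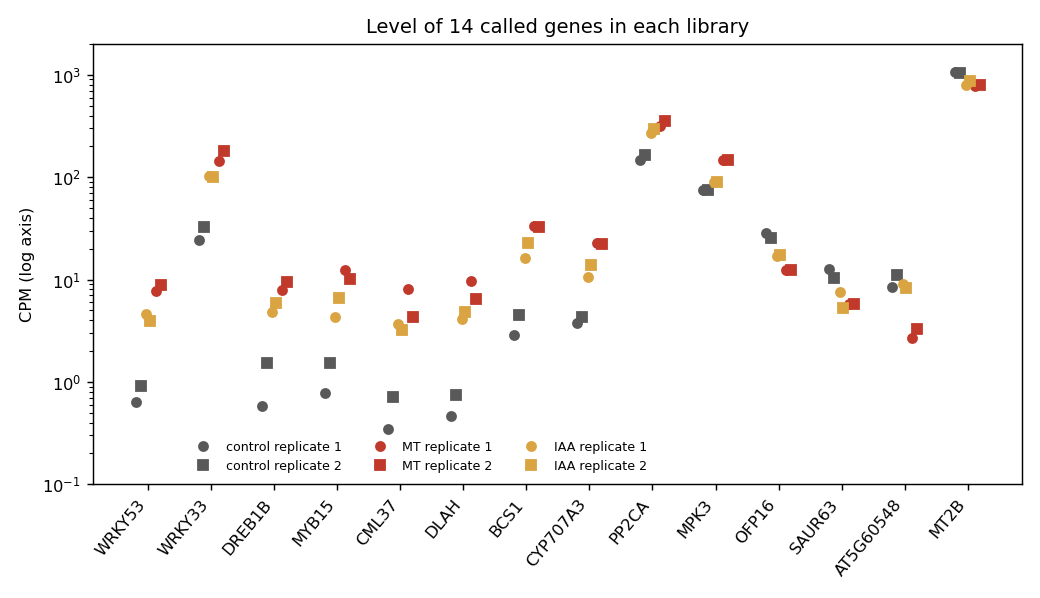
The level of 14 called genes is shown in each of the 6 libraries as CPM on a log axis, with circles for replicate 1 and squares for replicate 2. The control points (grey) and the MT points (red) do not overlap for any of the 14, and for WRKY33 the IAA libraries (yellow), at 103 and 101 CPM, lie between them.

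Genes for stress-related transcription factors were among those called higher with MT. Of 16 tested genes for stress ERF and DREB2 factors, which bind the promoters of ethylene and drought responsive genes, 8 rose and 0 fell, with a list median log2 fold change of 1.19. ERF4, a repressor of ethylene and jasmonate responses, was at 41.7 and 53.8 CPM in the control and at 120.5 and 139.6 CPM with MT. ERF5 rose by 2.02 ± 0.28, ERF11 by 2.04 ± 0.23 and ERF105 by 2.13 ± 0.24 (log2, SE). Among 8 genes for ZAT and AZF zinc finger factors, 4 rose and the list median was 1.23. ZAT10, a repressor induced by many stresses, was at 7.97 and 15.9 CPM and at 48.7 and 38.6 CPM, so that the control libraries differed about as 1 to 2 while the MT libraries stayed above both. Its level with IAA, 38.1 and 47.8 CPM, lay in the range of the MT libraries or just below it. AZF2 had closer replicates, at 9.14 and 10.2 CPM and at 20.17 and 19.9 CPM. Without MT replicate 1 the number of genes called higher in these lists was 4 for the ERF and DREB2 factors and 1 for the zinc finger factors, and without control replicate 1 it was 6 and 2.

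Stress NAC factors held the largest share of called members among the lists examined, 8 of 14 tested genes, with none lower and a median log2 fold change of 0.56. NAC062, a membrane-bound factor released under cold and endoplasmic reticulum stress, was at 15.2 and 17.8 CPM in the control and at 41.1 and 41.1 CPM with MT. ANAC019, ANAC055 and RD26, closely related factors that act in both jasmonate and abscisic acid responses, rose by 1.57 ± 0.19, 1.05 ± 0.21 and 0.80 ± 0.08 (log2, SE). NAC102, ATAF1, NAC032 and ATAF2, which belong to another NAC subgroup, rose by 0.57 ± 0.06, 0.55 ± 0.07, 0.72 ± 0.10 and 0.52 ± 0.10. Without MT replicate 1, 5 of the 14 were called higher, and without control replicate 1 only 2 were.

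Fewer of the WRKY genes were called, 7 of 60 tested, although 45 had positive fold changes and the list median was 0.31. The number of WRKY genes called was 4 without MT replicate 1 and 4 without control replicate 1. WRKY33, which is required for camalexin synthesis and resistance to necrotrophic fungi, was at 24.2 and 32.3 CPM in the control and at 143 and 181.5 CPM with MT. WRKY46 was at 1.42 and 2.00 CPM and at 16.1 and 17.3 CPM. WRKY40, a repressor of defence and abscisic acid responses, was at 6.55 and 10.7 CPM and at 36.5 and 40.5 CPM. The MT libraries of all 3 lay well above the controls, with adjusted p of 0.00038, 0.000393 and 0.00133 in edgeR's quasi-likelihood test. WRKY33, WRKY40 and WRKY53 overlap annotated neighbours, as do, among other genes named here, ERF105, NAC102, NHL3, SOBIR1, CRK10, CML12, CML24, CPK28, MPK3, MKK4, MYC2, ACO5, ABI1, SARD1, DREB1A, SAUR63, CASP1, CCR2, CSD1, AT3G18773, NSI and CAND2. The sources used here do not say whether counting used strand, so reads of such neighbours cannot be told apart. Of the 12 tested genes of the camalexin list 0 were called by that test (2 at an unadjusted p under 0.05, 0 by DESeq2), and its lowest p was that of ASA1, at 54.7 and 53.1 CPM in the control and 46.4 and 46.3 CPM with MT (adjusted p = 0.177).

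The DREB1 (CBF) genes, which drive the cold response and sit side by side on chromosome 4, rose together. DREB1B was at 0.575 and 1.54 CPM in the control and at 7.91 and 9.40 CPM with MT. DREB1C was at 1.69 and 4.72 CPM and at 20.05 and 16.7 CPM, and DREB1A at 1.303 and 2.63 CPM and at 10.4 and 10.1 CPM. The spread between the control libraries was wide in all 3, and each MT library exceeded it. Of the 17 tested cold regulators and targets 5 rose, the other two being the dehydrin genes COR47 and ERD10, whose products protect cells during freezing and drought. ERD10 was at 126.5 and 154.4 CPM and at 220.8 and 221 CPM, and COR47 rose by 0.67 ± 0.13. DREB1C (adjusted p = 0.07), ERD10 (0.0641) and COR47 (0.221) were no longer called without MT replicate 1 in edgeR's quasi-likelihood test, which left 2 called in the list. Without control replicate 1 there were 3, the DREB1 genes.

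**Figure D4:**
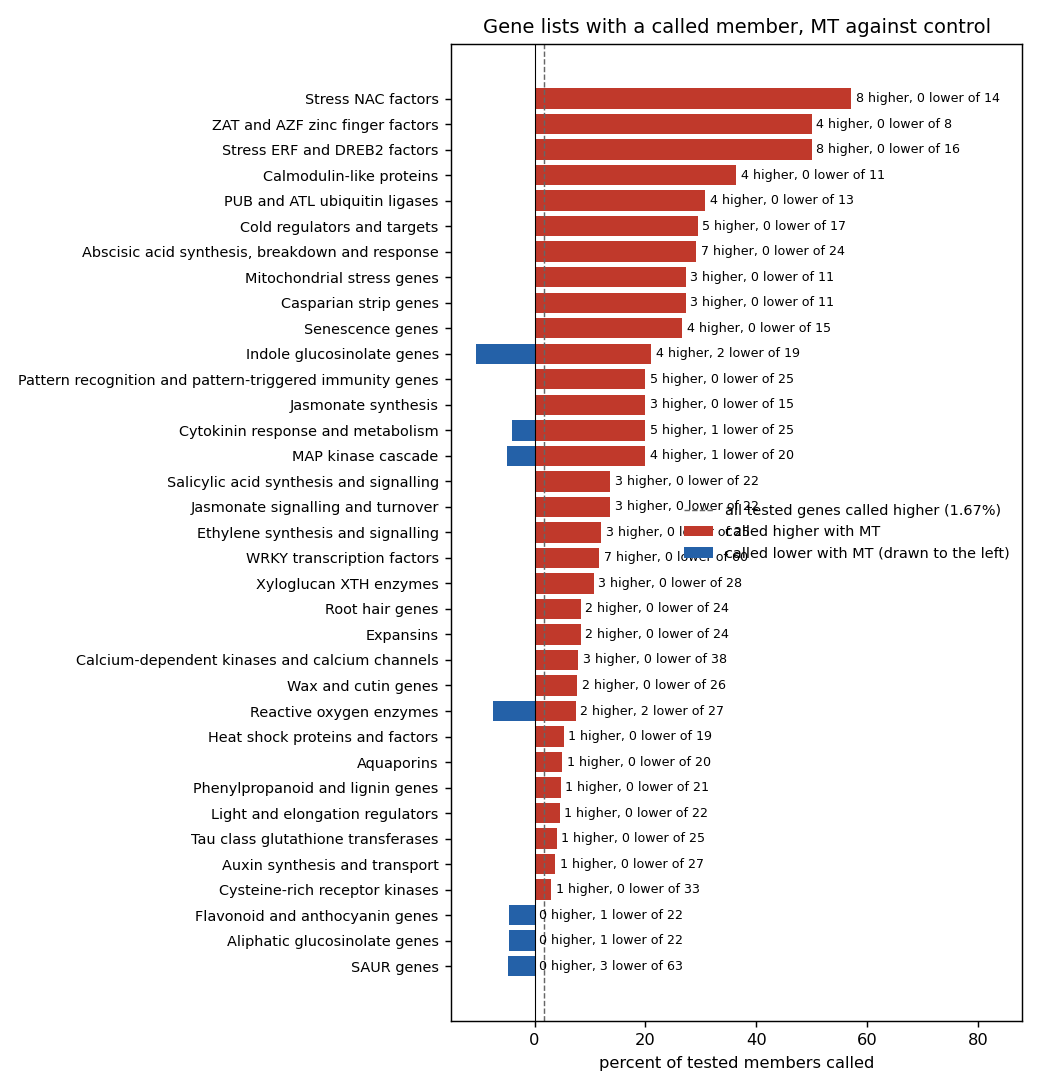
Bars give the percent of tested members called higher (red, to the right) or lower (blue, to the left) with MT for the 35 lists with a called member, and the text beside each bar gives the counts. The stress NAC, zinc finger and ERF lists reach furthest to the right, while the dashed line marks the 1.67% of all tested genes that were called higher.

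Further families were counted after the called genes had been seen, so their counts only describe. The share called higher over all tested genes was 1.67%. Among 93 tested R2R3 MYB genes, 9 were called higher, of which 6 were called without MT replicate 1 and 6 without control replicate 1. They included MYB77 (10.0 and 13.4 CPM in the control, 43.3 and 45.9 CPM with MT), which modulates auxin response in lateral roots, and its relatives MYBR1, at a log2 fold change of 0.97 ± 0.07, and MYB73, at 0.82 ± 0.12. MYB96 and MYB94, activators of wax synthesis, went from 22.5 and 27.8 CPM to 63.4 and 75.5 CPM and from 11.2 and 9.95 CPM to 20.05 and 25.1 CPM. They were the 2 called of 26 tested wax and cutin genes. Of 16 heat shock factor genes 5 were called higher (1 without MT replicate 1 and 1 without control replicate 1), among them HSFC1 (33.8 and 36.9 CPM, then 70.2 and 86.6 CPM), and 1 of 19 tested genes of the list of heat shock proteins and factors, HSFB2A, was called, though not without MT replicate 1 or without control replicate 1. The CCCH zinc finger genes SZF1 and CZF1, which act in salt stress and immunity, reached 162.5 and 148.6 CPM and 141.6 and 135 CPM with MT. Their control levels were unequal, 27.7 and 49.5 CPM for SZF1 and 32.9 and 51.9 CPM for CZF1. FBS1, a stress-induced F-box gene, went from 4.75 and 5.75 CPM to 30.7 and 32.5 CPM, with an adjusted p of 0.00038 in edgeR's quasi-likelihood test.

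The promoters of the called genes were searched for short motifs known as binding sites of these factor families. The window ran from 250 bases before to 50 bases after the annotated gene start in TAIR10.1, both strands were searched, and 20726 tested genes had one. The build behind the deposited counts is not given in the sources used here, so the windows follow locus codes alone. The core CGCGTT, read by calmodulin-binding CAMTA factors, stood in 43 of 353 windows of genes called higher (12.2%), in 0 of 46 of genes called lower and in 3.7% of all tested. A W-box, TTGACC or TTGACT, the site of WRKY factors, stood in 46.7%, 37% and 32.7%. The abscisic acid element ACGTGG or ACGTGT stood in 28.6%, 26.1% and 20.4%, and the GCC box GCCGCC of ERF factors in 4.25%, 0 of 46 windows and 2.61%. For the drought and cold element ACCGAC or GCCGAC the shares were 11.6%, 10.9% and 9.57%, for the G-box CACGTG 11.6%, 13% and 8.79%, and for the auxin element TGTCTC 15%, 4.35% and 13.8%. TATAAA stood in 58.6%, 69.6% and 51.8%, and the telo-box AAACCC in 17.3%, 19.6% and 20.9%. The G-box can share letters with the abscisic acid element, and a W-box overlapped a CGCGTT in 2 windows of genes called higher. Both motifs stood in 5.95% of windows of genes called higher and 1.32% of all, and the GC content of the windows was 31.3% and 32%. A match is a run of letters and was not tested as a binding site.

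The windows of 4 genes called higher show how these motifs are placed. Each sequence is the 250 bases before the gene start from the RefSeq TAIR10.1 genome, 5′ to 3′ on the strand of the gene, with W-boxes and CGCGTT on either strand in capitals. EXLA3, an expansin-like gene, and the cold factor gene DREB1C were chosen for holding both motifs, CML24 for holding CGCGTT in runs that read the same on both strands, and WRKY33 for W-boxes before a gene that itself codes for a W-box factor.
EXLA3 promoter, chr3:16892452-16892701, forward strand: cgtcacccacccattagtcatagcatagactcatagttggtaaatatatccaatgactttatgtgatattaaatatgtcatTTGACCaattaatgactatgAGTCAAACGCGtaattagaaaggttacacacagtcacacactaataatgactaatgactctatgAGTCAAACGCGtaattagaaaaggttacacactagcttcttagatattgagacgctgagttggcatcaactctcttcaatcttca
DREB1C promoter, chr4:13016236-13016485, reverse strand: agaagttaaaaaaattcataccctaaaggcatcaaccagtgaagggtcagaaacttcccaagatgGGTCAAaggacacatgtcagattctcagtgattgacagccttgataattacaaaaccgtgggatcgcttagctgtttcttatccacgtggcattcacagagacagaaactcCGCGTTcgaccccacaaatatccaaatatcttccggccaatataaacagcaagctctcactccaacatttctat
CML24 promoter, chr5:14999620-14999869, reverse strand: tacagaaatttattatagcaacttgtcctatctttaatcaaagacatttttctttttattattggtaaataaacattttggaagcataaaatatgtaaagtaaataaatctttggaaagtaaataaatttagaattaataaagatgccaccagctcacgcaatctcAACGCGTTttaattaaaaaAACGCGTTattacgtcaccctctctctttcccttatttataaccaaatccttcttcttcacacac
WRKY33 promoter, chr2:16107985-16108234, forward strand: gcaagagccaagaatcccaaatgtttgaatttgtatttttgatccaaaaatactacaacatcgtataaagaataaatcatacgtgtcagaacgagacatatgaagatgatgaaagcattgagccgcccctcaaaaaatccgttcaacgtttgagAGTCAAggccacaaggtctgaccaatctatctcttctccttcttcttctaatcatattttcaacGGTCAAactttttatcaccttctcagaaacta
EXLA3 holds 3 W-boxes and 2 CGCGTT, and 2 of its W-boxes run into a CGCGTT on the same stretch. Its level was 0.498 and 0.864 CPM in the control and 5.04 and 4.71 CPM with MT. DREB1C holds 1 of each motif. CML24 holds 4 CGCGTT matches, which are 2 runs counted on both strands, and no W-box. WRKY33 holds 2 W-boxes.

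Some calcium sensors and kinases of the early stress response were called higher with MT, as were 1.67% of all tested genes. Of 11 tested calmodulin-like genes, 4 rose and the median log2 fold change was 0.99. CML12 (also called TCH3), first found as a touch-induced gene, was at 20.18 and 25.6 CPM in the control and at 85.4 and 86.2 CPM with MT. CML24 (also called TCH2) was at 25.6 and 34.4 CPM and at 71.2 and 62.5 CPM, and its close relative CML23 rose by 1.09 ± 0.21 (log2, SE). In the wider family of 59 EF-hand proteins, counted after the values were seen, 11 were called higher, of which 7 were called without MT replicate 1 and 7 without control replicate 1. AT5G39670 was among them, at 1.801 and 1.88 CPM and at 10.5 and 9.48 CPM. The calcium pump gene ACA1 (AT1G27770) rose by 0.96 ± 0.10. Among 38 calcium-dependent kinase and channel genes 3 rose, and the list median was 0.14. CPK28, which limits immune signalling by promoting turnover of a receptor-associated kinase, was at 23.48 and 24.1 CPM and at 48.8 and 48.9 CPM. CPK32 went from 47.0 and 51.3 CPM to 100.2 and 99.6 CPM, and CPK29 rose by 0.67 ± 0.13. The replicates of CPK28 and CPK32 were close in both groups, and both genes were called without MT replicate 1 (adjusted p = 0.00401 and 0.00391) and without control replicate 1 (0.00826 and 0.00547, edgeR's quasi-likelihood test).

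Beside 1.67% higher and 0.226% lower over all tested genes, 4 of 20 MAP kinase cascade genes rose and 1 fell. The numbers were 2 and 0 without MT replicate 1, and 1 and 0 without control replicate 1. MPK3, a kinase activated within minutes of pattern recognition, was at 74.7 and 74.5 CPM in the control and at 145.6 and 146.9 CPM with MT, beside 90.4 and 89.4 CPM with IAA. MKK4, which activates MPK3, was at 11.3 and 11.6 CPM and at 16.1 and 19.5 CPM. MKK9 rose by 0.92 ± 0.15 and MAPKKK18, a kinase of abscisic acid signalling, by 1.86 ± 0.26 (log2, SE). With IAA, MKK9 was at 22.1 and 22.9 CPM, above both of its MT libraries at 20.23 and 17.7 CPM. MEKK2 was lower, at 25.8 and 26.7 CPM in the control and 19.0 and 18.9 CPM with MT. Among 27 genes for enzymes of reactive oxygen and related kinases 2 rose and 2 fell, or 2 and 0 without MT replicate 1 and 1 and 0 without control replicate 1. RBOHD, the NADPH oxidase of the immune oxidative burst, was at 51.1 and 49.4 CPM and at 68.2 and 71.1 CPM. OXI1, a kinase activated by hydrogen peroxide, was at 0.690 and 1.05 CPM and at 7.63 and 4.69 CPM. The copper/zinc superoxide dismutase genes CSD1 and CSD2 were lower, at 116.4 and 104.5 CPM then 84.7 and 81.6 CPM, and at 144.2 and 122.1 CPM then 87.99 and 93.4 CPM. Neither CSD gene was called without MT replicate 1 (adjusted p = 0.0933 and 0.14) or without control replicate 1 (0.273 and 0.157, edgeR's quasi-likelihood test).

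Genes of pattern recognition and of intracellular immune receptors were among those called higher. Of 25 pattern recognition and pattern-triggered immunity genes 5 rose and 0 fell, with 22 positive. The number called higher was 3 without MT replicate 1 and 1 without control replicate 1. LYK5, a chitin receptor kinase, was at 3.49 and 3.48 CPM in the control and at 8.13 and 10.2 CPM with MT. SOBIR1, a partner kinase of receptor-like proteins, was at 26.4 and 26.0 CPM and at 46.0 and 43.5 CPM. NHL3 rose by 1.38 ± 0.15 and CYP81F2 by 1.46 ± 0.27 (log2, SE), and PROPEP3, the precursor of a danger peptide, by 2.97 ± 0.56 from control levels of 0.115 and 0.211 CPM. The ADR1 genes code for helper receptors that act downstream of other immune receptors. After the values were seen they were counted as a family, and all 3 tested members were called higher, of which 2 were called without MT replicate 1 and 1 without control replicate 1. ADR1 was at 15.3 and 16.1 CPM and at 24.5 and 22.9 CPM, ADR1-L1 at 49.4 and 53.7 CPM and at 77.4 and 75.0 CPM, and ADR1-L2 at 25.6 and 26.5 CPM and at 43.5 and 49.3 CPM. Of 100 genes annotated with a TIR domain, the signalling domain of one class of immune receptors, 9 were called higher and 0 lower, with a family median of 0.14, and 4 of the 9 were called without MT replicate 1 and 4 without control replicate 1. AT5G41750 was at 1.61 and 1.08 CPM and at 10.9 and 9.20 CPM, and its neighbour AT5G41740 at 8.28 and 8.11 CPM and at 13.3 and 17.2 CPM. The cluster of AT1G72900, AT1G72910, AT1G72920 and AT1G72940 rose by 1.096 to 1.27, whereas TIR (AT1G72930), which lies among them, was at 87.2 and 87.5 CPM in the control and at 94.1 and 89.7 CPM with MT and was not called (adjusted p = 0.712, edgeR's quasi-likelihood test). Among 46 receptor-like proteins and 9 wall-associated kinases 0 were called by that test (4 and 2 at an unadjusted p under 0.05, 2 and 0 by DESeq2), and CRK10 was the single called member of 33 cysteine-rich receptor kinases, and 0 of these were called without MT replicate 1 or without control replicate 1.

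Some genes for ubiquitin ligases, syntaxins and other membrane proteins were called higher. Of 13 tested PUB and ATL ligases, 4 rose with a list median of 0.75. Beside 1.67% higher and 0.226% lower over all tested genes, 9 of all 271 tested RING and U-box proteins were called higher and 2 lower. Their median was 0.03, and they were counted after the values were seen. Fewer of these were called without MT replicate 1 or without control replicate 1. PUB19, a negative regulator of abscisic acid and drought responses, was at 14.9 and 27.2 CPM in the control and at 105 and 142.6 CPM with MT. ATL31, a membrane ligase of the carbon and nitrogen response, was at 3.143 and 3.119 CPM and at 16.3 and 10.9 CPM. PUB18 was outside that list and rose by 2.28 ± 0.34 (log2, SE), and the defence ligase genes CMPG1 and CMPG2 rose by 1.02 ± 0.19 and 0.94 ± 0.14. SYP121 and SYP122, paired syntaxins of the plasma membrane, were at 17.1 and 18.4 CPM then 31.1 and 28.9 CPM, and at 10.7 and 16.9 CPM then 43.6 and 38.9 CPM. They were the 2 called of 22 tested plant syntaxins, counted after the values were seen, and 1 was called without MT replicate 1 and 1 without control replicate 1. The exocyst gene EXO70B1 rose by 0.57 ± 0.07 and the tetraspanin gene TET8 by 1.12 ± 0.10.

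In the salicylic acid, jasmonate and ethylene lists 3 genes each rose, or 6 for jasmonate over its 2 lists, and none fell. The share called higher over all tested genes was 1.67%. CBP60G and SARD1, factors that switch on salicylic acid synthesis, were at 4.39 and 3.86 CPM then 10.6 and 11.5 CPM, and at 1.59 and 1.08 CPM then 3.72 and 4.39 CPM. Together with PAD4 they made up the 3 called of 22 salicylic acid genes, with a list median of 0.20. In jasmonate synthesis 3 of 15 genes rose, which were DLAH, the lipoxygenase gene LOX4 (4.75 and 4.74 CPM, then 14.3 and 17.7 CPM) and the cyclase gene AOC3 (log2 fold change 1.204 ± 0.24 SE). In jasmonate signalling 3 of 22 rose. The master regulator gene MYC2 was at 36.4 and 49.0 CPM and at 94.6 and 96.0 CPM, and the genes of its repressors JAZ1 and JAZ5 at 15.6 and 25.4 CPM then 52.3 and 55.1 CPM, and at 0.747 and 1.24 CPM then 2.83 and 3.27 CPM. Of 25 ethylene genes 3 rose. ACS6, which makes the ethylene precursor and whose protein is a target of MPK3, was at 24.0 and 40.2 CPM and at 89.0 and 92.6 CPM, beside 79.9 and 88.2 CPM with IAA. ACO5 rose by 1.67 ± 0.30 and EBF1, whose product degrades the ethylene factor EIN3, by 0.40 ± 0.06. In the salicylic acid and ethylene lists 1 and 2 genes were called without MT replicate 1, and 1 in each without control replicate 1. The medians of the jasmonate signalling and ethylene lists, 0.04 and -0.004, were near that of all genes. Of 17 plant defensin and pathogenesis genes 0 were called in edgeR's quasi-likelihood test (3 at an unadjusted p under 0.05, 0 by DESeq2). EARLI1, with the lowest p among them, was at 63.1 and 102.4 CPM and at 153.8 and 113.6 CPM (adjusted p = 0.2).

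Abscisic acid genes showed increases at the points of synthesis, breakdown and negative feedback. Abscisic acid is the hormone of drought and osmotic stress, and its receptors act by blocking clade A protein phosphatases 2C, which otherwise hold the pathway off. Of 24 tested abscisic acid genes 7 rose and 0 fell, and the list median was 0.13. The number called higher was 6 in the fit without MT replicate 1 and 3 in that without control replicate 1. NCED3, a key synthesis enzyme, was at 17.8 and 21.1 CPM in the control and at 44.7 and 65.1 CPM with MT. CYP707A3, which breaks the hormone down, was at 3.78 and 4.28 CPM and at 22.7 and 22.1 CPM, a log2 fold change of 2.48 ± 0.15 (SE). Its replicates were close in both groups, and its adjusted p was 0.00038 with all libraries and 0.00391 without MT replicate 1 (edgeR's quasi-likelihood test). Its level with IAA was 10.6 and 13.8 CPM.

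The clade A phosphatases were counted as a family after their values were seen, and 5 of 8 tested genes were called higher. Among them PP2CA, ABI1 and HAI2 are also members of the abscisic acid list, so the counts share genes. Of all 60 tested protein phosphatases 2C, 9 were called higher and 0 lower, with a median of 0.05. PP2CA, one of the 10 most abundant called transcripts, was at 147.5 and 165.6 CPM in the control and at 313 and 357 CPM with MT. ABI1 was at 246.5 and 258.2 CPM and at 351.9 and 382.2 CPM, and ABI2 at 54.6 and 62.0 CPM and at 75.2 and 81.8 CPM. HAI1 and HAI2 rose by 0.79 ± 0.15 and 1.24 ± 0.14 (log2, SE). HAB1 was at 132 and 139.1 CPM then 149.2 and 158.7 CPM, and HAB2 at 77.0 and 77.8 CPM then 74.2 and 78.0 CPM, and neither was called. HAI3 was below 0.5 CPM in all 4 libraries. Of the 5, 4 were called without MT replicate 1 and 2 without control replicate 1. Further genes linked to the hormone were called outside the list. The homeobox genes HB6, HB-7 (AT2G46680) and HB-12 rose by 0.43 ± 0.06, 0.44 ± 0.08 and 0.65 ± 0.10. AFP1 and AFP2, whose products bind the factor ABI5, rose by 0.48 ± 0.08 and 0.86 ± 0.15. EDL3, an F-box gene of abscisic acid signalling, was at 2.36 and 2.02 CPM and at 10.2 and 14.9 CPM.

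Some cytokinin response genes were called higher, as were 1.67% of all tested genes. Of 25 cytokinin genes 5 rose and 1 fell, with a median of 0.18. ARR7 and ARR5, type-A response regulators that dampen the pathway and report its activity, were at 14.8 and 15.5 CPM then 27.8 and 35.01 CPM, and at 8.11 and 8.98 CPM then 14.9 and 13.6 CPM. CRF2 and CRF5, cytokinin response factors of the ERF family, rose by 1.06 ± 0.16 and 0.77 ± 0.14 (log2, SE). CKX1, which breaks cytokinin down, was at 13.0 and 11.2 CPM and at 6.59 and 8.01 CPM. Without MT replicate 1, 2 genes were called higher and 0 lower, and without control replicate 1, 0 were called in either direction. After the values were seen, purine permeases, a family that includes cytokinin transporters, were counted, and 3 of 14 were called higher, of which 2 were called without MT replicate 1 and 1 without control replicate 1. PUP14 was at 58.2 and 64.9 CPM and at 109.3 and 108.1 CPM, and PUP10 and PUP18 rose by 0.97 ± 0.15 and 0.92 ± 0.12.

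The title of the series puts auxin genes in question. Over all tested genes 1.67% were called higher and 0.226% lower. Of 35 Aux/IAA and GH3 genes, the fast transcriptional reporters of auxin, 0 passed edgeR's quasi-likelihood test (7 at an unadjusted p under 0.05, 2 higher and 5 lower, and 2 by DESeq2), and their median log2 fold change was -0.02. GH3.6, with the lowest p, was at 186.5 and 135.8 CPM in the control and at 106.2 and 115.8 CPM with MT (adjusted p = 0.0992). Of 63 SAUR genes, small auxin-induced genes of cell expansion, 3 fell and 0 rose, 19 were positive and the median was -0.29. DESeq2 called 8 SAUR genes and limma-voom 0. Both MT libraries lay below both controls for 30 and above them for 9, against 22.2% and 22.5% of all tested genes. SAUR21 (AT5G18030) was at 6.63 and 5.99 CPM and at 2.57 and 2.27 CPM, SAUR63 at 12.6 and 10.3 CPM and at 5.81 and 5.71 CPM, and SAUR68 at 6.57 and 5.25 CPM and at 3.03 and 2.87 CPM. No SAUR gene was called without MT replicate 1, where the list median was -0.50, and the adjusted p of these 3 were then 0.213, 0.249 and 0.188 (edgeR's quasi-likelihood test). Without control replicate 1 none was called either, and the median was -0.27. Among 27 auxin synthesis and transport genes YUC3 rose, from 0.690 and 0.569 CPM to 2.57 and 1.97 CPM, but was not called without MT replicate 1 or without control replicate 1. In the gibberellin list (26 tested) and the brassinosteroid list (24 tested, median -0.10) 0 genes were called by the same test (3 and 7 at an unadjusted p under 0.05, 0 and 1 by DESeq2).

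The 3 genes tested as candidates for melatonin synthesis or perception were not called, with 0 also at an unadjusted p under 0.05 and by DESeq2. NSI, a serotonin N-acetyltransferase gene, was at 65.2 and 67.8 CPM in the control and at 54.8 and 62.5 CPM with MT. OMT1, a methyltransferase, was at 494.8 and 470.9 CPM and at 458.4 and 463.3 CPM. CAND2, a proposed melatonin receptor, was at 18.9 and 18.4 CPM and at 18.0 and 19.0 CPM, so that its groups overlapped. Their log2 fold changes were -0.18 ± 0.08, -0.07 ± 0.07 and -0.01 ± 0.10 (SE), with adjusted p of 0.38, 0.758 and 0.978 in edgeR's quasi-likelihood test.

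Among the root tissue lists only the Casparian strip and root hair lists held called genes. In both the summed level was highest in MT replicate 1. Over all tested genes 1.67% were called higher. Of 11 genes of the Casparian strip, the lignin seal of the root endodermis, 3 rose, all 11 were positive and the median was 1.28. CASP1, a scaffold protein of the strip, was at 1.74 and 2.93 CPM in the control and at 12.2 and 5.69 CPM with MT. PER72, a strip peroxidase gene, was at 7.32 and 8.45 CPM and at 23.2 and 15.1 CPM, and UCC1 rose by 1.54 ± 0.30 (log2, SE). ESB1, which helps lignin deposition, was at 4.66 and 6.74 CPM and at 13.6 and 5.11 CPM, so that only MT replicate 1 lay above the controls. Of 24 tested root hair genes 2 rose, 23 were positive and the median was 1.12. CSLD3, a cell wall synthase needed for root hair growth, was at 29.7 and 30.7 CPM and at 41.0 and 41.1 CPM, and LRX1 at 1.27 and 1.81 CPM and at 5.16 and 3.34 CPM. RHS19 and PRP3 were highest in MT replicate 1, at 9.37 and 12.2 CPM, while in MT replicate 2 they were at 3.82 and 6.09 CPM beside 3.41 and 5.86 CPM in control replicate 2.

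The summed level of the root hair list was 64.6 and 85.5 CPM in the control and 151.4 and 100.2 CPM with MT, beside 96.6 and 118.2 CPM with IAA. The summed level of the Casparian strip list was 25.1 and 35.7 CPM, 85.3 and 52.0 CPM, and 41.1 and 43.5 CPM in the same order. Without MT replicate 1 the medians were 0.55 for root hair and 0.60 for Casparian strip genes, with 0 and 1 genes called higher. Without control replicate 1 they were 0.62 and 1.02, and 0 genes were called in either list. In whole seedlings a larger share of root cells and more RNA of these genes per cell cannot be told apart. All 11 Casparian strip genes were read in every one of the 6 libraries, and no member of the root hair list was at 0 in all of them, although the design text names rosette leaves. Suberin genes (18 tested, 17 positive, median 0.35) and root meristem and lateral root genes (19 tested, median 0.43, summed levels of 177.1 and 173.8 CPM in the control and 173 and 178.8 CPM with MT) had 0 called members in edgeR's quasi-likelihood test (6 and 1 at an unadjusted p under 0.05, all higher, and 0 by DESeq2). The 42 nuclear photosynthesis genes, markers of green tissue, had 0 called (6 at an unadjusted p under 0.05, all lower, and 2 by DESeq2), a median of -0.07 and summed levels of 133200 and 127800 CPM in the control and 123300 and 128400 CPM with MT. Stomatal, cell cycle and reference transcript lists had medians of -0.01, 0.05 and 0.001 and 0 called (2, 1 and 0 at an unadjusted p under 0.05, and 0, 1 and 0 by DESeq2). Of the 18 seed storage genes 5 were tested and of the 10 flower organ genes 5, with 0 called in either list (1 in each at an unadjusted p under 0.05, 0 by DESeq2).

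**Figure D5:**
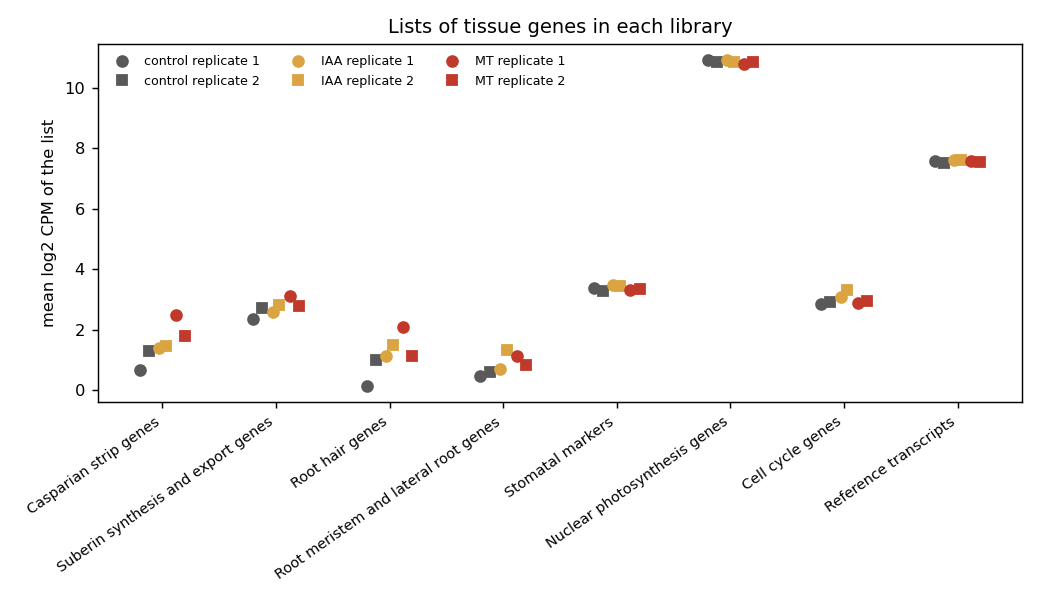
Points give the mean log2 CPM of the tested genes of 8 lists in each library, with circles for replicate 1 and squares for replicate 2 of control (grey), IAA (yellow) and MT (red). For root hair genes MT replicate 1 is highest at 2.08 and control replicate 1 lowest at 0.15, with MT replicate 2 at 1.14 and control replicate 2 at 1.00, while the reference transcripts lie between 7.51 and 7.62.

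A few cell wall genes were called, beside 1.67% of all tested genes called higher and 0.226% called lower. Of 28 XTH genes, whose products cut and rejoin xyloglucan, 3 rose. In the list 1 was called higher and 1 lower without MT replicate 1, and 1 higher and 0 lower without control replicate 1. XTH22, a touch-induced gene, was at 25.4 and 30.0 CPM in the control and at 75.9 and 71.8 CPM with MT, and XTH18 and XTH23 rose by 1.803 ± 0.29 and 1.43 ± 0.23 (log2, SE). Among 24 expansins, wall-loosening proteins, EXLA3 and EXPA17 rose, the latter from 0.364 and 1.43 CPM to 6.70 and 4.86 CPM. The arabinogalactan protein genes AGP1 and AGP10 rose by 1.58 ± 0.20 and 1.06 ± 0.13. Of 20 aquaporins TIP4;1 rose, from 1.74 and 2.66 CPM to 8.84 and 5.76 CPM, and of 21 phenylpropanoid and lignin genes CCR2 (AT1G80820) rose, by 0.94 ± 0.18. XTH22 was called without MT replicate 1 (adjusted p = 0.00401) and EXPA17, TIP4;1 and CCR2 were not (0.25, 0.253 and 0.288, edgeR's quasi-likelihood test), and without control replicate 1 the same held, at 0.00511 for XTH22 and 0.141, 0.345 and 0.364 for the others.

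Glucosinolate genes were called in both directions, beside 1.67% of all tested genes called higher and 0.226% called lower. Glucosinolates are the sulphur-containing defence compounds of the cabbage family, made from tryptophan in the indole branch and from methionine in the aliphatic branch. Of 19 indole branch genes 4 rose and 2 fell, with a median of 0.20. The numbers were 2 and 0 with a median of 0.08 without MT replicate 1, and 1 and 0 with a median of 0.11 without control replicate 1. MYB51, the main activator of the branch, was at 8.62 and 7.88 CPM in the control and at 26.7 and 27.7 CPM with MT. IGMT2 and IGMT3, neighbouring methyltransferase genes that modify indole glucosinolates, were at 1.17 and 1.56 CPM then 7.16 and 4.94 CPM, and at 4.01 and 6.98 CPM then 24.6 and 13.8 CPM. APK1 and APK2, which supply activated sulphate for both branches, were lower, at 141.1 and 136.3 CPM then 102.3 and 108.5 CPM, and at 122.2 and 116.3 CPM then 77.4 and 94.9 CPM. In the aliphatic branch 1 of 22 genes fell and 0 rose, but 20 of the 22 were negative, with a median of -0.41. CYP83A1, the called gene, was at 291.1 and 287.3 CPM and at 206 and 236.6 CPM. The regulator gene MYB28 was at 162.7 and 139.8 CPM and at 91.5 and 134.1 CPM. For 19 of the 22 both MT libraries lay below both controls. Over all tested genes 22.2% lay so, and 49.3% had a positive fold change. Without MT replicate 1 the list median was -0.26 and 0 genes were called by edgeR's quasi-likelihood test, and CYP83A1 had an adjusted p of 0.178. Without control replicate 1 the median was -0.36, 0 genes were called, and that p was 0.308. The difference between the branches was not tested.

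Among 11 mitochondrial stress genes 3 rose: BCS1 and the carriers DIC1 and DIC2, which move dicarboxylic acids across the inner membrane. The share called higher over all tested genes was 1.67%. DIC1 was at 11.8 and 14.1 CPM in the control and at 45.0 and 43.0 CPM with MT, and DIC2 at 13.4 and 26.9 CPM and at 69.7 and 61.4 CPM. With IAA, DIC1 was at 30.8 and 33.8 CPM and DIC2 at 63.5 and 65.6 CPM, the latter between its MT libraries. Of 15 senescence genes 4 rose, 3 without MT replicate 1 and 1 without control replicate 1. NAP, a NAC factor gene that promotes leaf senescence, was at 46.6 and 50.4 CPM and at 72.9 and 83.4 CPM, and SAG14 and SAG20 rose by 0.93 ± 0.14 and 0.56 ± 0.10 (log2, SE). Of 25 tau class glutathione transferases GSTU25 rose, with unequal MT libraries at 23.1 and 11.3 CPM over controls at 3.57 and 4.97 CPM, and was not called without MT replicate 1 or without control replicate 1. The lists of nitrate, phosphate, iron, copper and sulphur supply had 0 called members in edgeR's quasi-likelihood test (6, 7, 6, 2 and 6 at an unadjusted p under 0.05, and 0, 1, 2, 1 and 2 by DESeq2). The same held for sugar starvation, sugar transport, signal peptides, the circadian clock, and seedling establishment and phase (4, 5, 7, 3 and 0 at an unadjusted p under 0.05, and 0, 2, 2, 1 and 0 by DESeq2). Their medians ran from -0.04 for copper to 0.34 for sulphur. The genes at an unadjusted p under 0.05 were all higher for phosphate, iron and signal peptides and all lower for copper. The other lists with such genes held both directions.

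The genes called lower were fewer, more abundant and less changed. AT5G60548, which has no product name in the annotation, had the largest decrease among those with a mean of at least 1 CPM, at 8.39 and 11.0 CPM in the control and 2.71 and 3.27 CPM with MT. Its level with IAA was 9.14 and 8.21 CPM. OFP16, an ovate family gene, was at 28.6 and 25.3 CPM and at 12.4 and 12.3 CPM, and AT3G18773, a RING protein gene, at 13.0 and 12.8 CPM and at 6.25 and 5.16 CPM. With IAA, OFP16 was at 17.2 and 17.37 CPM and AT3G18773 at 6.57 and 6.20 CPM. All 3 genes were called without MT replicate 1, and all but AT3G18773 (adjusted p = 0.0546, edgeR's quasi-likelihood test) without control replicate 1. AT3G25570, annotated as an adenosylmethionine decarboxylase, an enzyme type of polyamine synthesis, was at 13.0 and 16.3 CPM and at 7.55 and 8.16 CPM. Of 63 genes annotated with kelch repeats, counted after the values were seen, 3 were lower and 0 higher, of which 2 were called without MT replicate 1 and 0 without control replicate 1. AT1G80440 was at 160.3 and 134.2 CPM and at 88.7 and 71.8 CPM, AT1G23390 at 288.2 and 253.8 CPM and at 179.3 and 171.9 CPM, and AT3G59940 at 187.8 and 166.3 CPM and at 137.7 and 122.9 CPM. Their family median was 0.01.

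AT2G20670, annotated as a putative sugar phosphate exchanger, was lower at 168.2 and 156.6 CPM then 102.5 and 85.8 CPM. The 2 most abundant called genes were both lower. MT2B, a metallothionein, was at 1073 and 1037 CPM in the control and at 772 and 804 CPM with MT, and NCED4, a carotenoid-cleaving enzyme, at 569.9 and 530.5 CPM and at 391.3 and 415.9 CPM. MYBL2, a repressor of anthocyanin synthesis and the 1 called of 22 flavonoid genes, was at 107.8 and 109.7 CPM and at 80.0 and 83.6 CPM. MT2B, NCED4 and MYBL2 were not called without MT replicate 1 (adjusted p = 0.0925, 0.0709 and 0.0865) or without control replicate 1 (0.151, 0.133 and 0.128, edgeR's quasi-likelihood test), and 4 genes in all were called lower without control replicate 1.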

How the data were processed

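The values used are raw read counts by gene in a single table that the authors deposited, which no header describes as normalized. Among the tools named, with no role, in the submitters' processing notes are HTSeq 0.6.1, TopHat2 2.0.12, Bowtie2 2.2.3 and DESeq. Build, annotation and strand setting were, for this table, not given in the sources used here. Of 27416 locus codes, 26719 matched RefSeq TAIR10.1, used for names, overlaps and promoters, and 562 rows are newGene loci. Depth ran from 40087221 to 65558371 counts per library, and the Wilson intervals cover counting error only.

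MT minus control was tested in edgeR 4.0.16 under R 4.3.3 (filterByExpr, TMM factors, glmQLFit and glmQLFTest) on the counts of all 6 libraries in 1 fit, after removal of 6711 genes with low counts. The fit had a common biological coefficient of variation (BCV) of 0.123 and 3 residual beside 5.61 prior degrees of freedom, and adjustment over all tested genes was by Benjamini-Hochberg. Fold changes are log2 with SE = |log2 fold change| divided by the square root of F. CPM uses TMM-scaled totals. The test was also run on simulated counts, with 200 changed genes in each of 5 draws. The spread was taken from the fit itself. Changed genes were drawn from those with a mean of at least 1 CPM, so the detection rates do not cover scarcer genes. Of the calls at an adjusted p under 0.05, 11.3% were unchanged genes, a larger share than that threshold aims at. Changes of 1.5-fold, 2-fold and 4-fold were called in 51.9%, 80.9% and 95.8% of cases.

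The 61 gene lists and the members described were chosen with earlier results of these data known. Named genes are the 10 largest increases and 10 largest decreases among called genes whose groups do not overlap and average at least 1 CPM, the 10 most abundant called genes, up to 4 called members per list with the lowest p (or else the lowest-p member), and the melatonin candidates. Others were chosen after their values were seen. Alternatives used upper-quartile or RLE factors or only library totals, other filters and thresholds, DESeq2 1.42.0, limma-voom 3.58.1, a replicate block, and fits without each library. Deviations of the same-numbered control and MT libraries from their group means correlated at -0.149. With 2 libraries a group, the crossed numbers then correlate positively to the same degree. A pairing of the libraries was not established.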

Additional observations from a re-analysis of the deposited data

How the results depend on the processing

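The 403 calls (355 higher, 48 lower, 200 at least 2-fold) were 402, 403 and 405 with RLE factors, upper-quartile factors and library totals alone. Leaving out 1 library gave 112 to 447 calls, 108 to 375 higher, 4 to 72 lower, 84 to 267 at least 2-fold and 112 to 447 without overlap between groups; the lowest of each came without control replicate 1, and without MT replicate 1 they were 172, 157, 15, 109 and 172. Without control replicate 2, 21 genes were lower. Leaving out a library leaves fewer samples to measure the spread. DESeq2 called 823, 664, 159, 358 and 822 in the same order. An adjusted p under 0.01 left 169, 162, 7, 115 and 169, and under 0.1 there were 627 calls, 114 of them lower and 627 without overlap. With no filter on low counts 108 of 24251 tested genes were lower, and at a mean of at least 5 CPM 120 of 15007 changed at least 2-fold. The causes of these moves were not tested.

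The replicate block gave 351 calls, 304 higher and 47 lower, 326 of them among the 403. The crossed replicate pairing, chosen after seeing the data, was fitted to the MT and control libraries only. It gave 1327 calls, 1047 higher, 280 lower, 483 at least 2-fold and 1221 without overlap. The same libraries without a block gave 326 calls. The counts that follow cover only the named genes as defined above and leave out other genes described here. Of 142 named genes (115 of them tested at 5 CPM) the single one that changed sign in an alternative was CAND2, which was not called. Of the 114 that were called, 50 were not called without MT replicate 1, 66 without control replicate 1, 13 under the replicate block and 0 with DESeq2. With 2 libraries a group, an exact permutation of the labels could not have passed any gene.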

Other observations

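Among neighbouring genes of the table, 22 pairs were both called higher, 17 of them on the same strand, and 41 genes stood in such pairs. They include the DREB1 genes, IGMT3 and IGMT2, COR47 and ERD10, AT5G41740 and AT5G41750, PUP10 beside AT4G18205, and ADR1 beside the leucine-rich repeat genes AT1G33590 and AT1G33600. A single pair, AT1G18000 and AT1G18010, both annotated as major facilitator transporters, was called lower on both sides. Genes annotated as overlapping another were 94 of the 399 called genes matched to the annotation, and 31.5% of all matched genes tested.

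In 3 called genes both control libraries were at 0, so no fold is given. TET9, a tetraspanin gene, had 0 and 0 counts in the control, 47 and 51 with MT and 22 and 22 with IAA. AT1G19040 had 57 and 38 counts with MT and 32 and 18 with IAA, and PP2-B13 had 19 and 19 with MT and 18 and 8 with IAA. A count of 0 allows up to 0.0567 CPM in control replicate 1 and 0.0634 CPM in control replicate 2.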
